A study of Rattus norvegicus with 63 samples.

Results

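Dehydroepiandrosterone (DHEA) was compared with methylcellulose control set 1 in rat liver. The comparison comprised 6 of the 63 animals of the series, chosen by their labels: 3 animals given DHEA and the 3 vehicle animals of the control set that the DHEA labels name. All were male Wistar Hanover rats, 8 to 10 weeks old at assignment. The DHEA animals received 600 mg/kg/day by gastric gavage for 14 days, and control animals 4, 5 and 6 received methylcellulose by the same route for 14 days. For DHEA the study's methods name carboxymethyl cellulose as the vehicle, whereas its list of compounds gives methylcellulose. From 5 animals per treatment group the study had selected 3 by the histopathology of the liver, so the treated values describe selected animals. For comparison with other treated livers that share control set 1, 3 animals each were taken from acetamide (AA, 3000 mg/kg/day, 14 days), methylcarbamate (Mcarb, 400 mg/kg/day, 14 days) and Wy-14643 (Wy, 60 mg/kg/day, 3 days). Methapyrilene and thioacetamide share the set as well but were given for 7 days and were not compared with DHEA here. A further 9 vehicle animals came from methylcellulose control sets 2, 5 and 6, also after 14 days.

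DHEA is an adrenal steroid and a precursor of androgens and oestrogens. In rodents, high oral doses act on the liver as a peroxisome proliferator, a class of agents that enlarge the peroxisome compartment and induce fatty acid oxidation, and for which the nuclear receptor PPAR alpha is the known mediator. Wy-14643 is a synthetic PPAR alpha ligand of the same class. The design text lists DHEA, AA and Mcarb among the nongenotoxic hepatocarcinogens and leaves the class of Wy undefined. The comparison therefore asks which liver proteins and protein modifications differ after DHEA, and whether livers exposed to compounds of like class show the same.

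The measurement was a reverse-phase protein array, on which each liver lysate is printed as spots and each array is probed with 1 antibody. The unit is the relative fluorescence intensity (RFI), a linear signal per antibody and animal, and levels of different antibodies cannot be set against each other. Of the 158 analytes, 104 were unmodified proteins and 54 carried a named modification. Analytes are named after human genes, with the residue added (RPS6_P-S235/S236 is ribosomal protein S6 phosphorylated at a pair of serines) and a number where several antibodies share a symbol. Of 101 symbols, 9 have no rat gene of that name, among them CYP2B6, CYP2C8, CYP3A4 and CYP3A5, and the rat protein bound by those antibodies is not named by the files. No sequences are shown because no protein sequences were supplied with the reference used here.

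Differences are log2 fold changes of RFI (DHEA minus control set 1) with the standard error (SE) of the limma fit over all 63 animals, and an analyte was called at a Benjamini-Hochberg adjusted p below 0.05 over all 158 analytes. Median RFI over the analytes lay between 0.440 and 0.637 in the 6 animals and was lowest in DHEA animal 1, at 0.440. The other DHEA animals had medians of 0.501 and 0.616, and the controls 0.570 to 0.637. Over all analytes the median log2 fold change was -0.18, with 135 of 158 values below 0. Without DHEA animal 1 the median was -0.03, and it was between -0.32 and -0.13 with any other of the 6 animals left out. The part that this shift has in single differences was not tested, and calls that depend on it are named below by what they became after each animal was centred on its own median.

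Of the 158 analytes, 10 were called (6.33%), 2 higher and 8 lower in DHEA. MAP2K1, the kinase that activates ERK, was about 4.05-fold higher, and CYP3A4_2, an antibody against the CYP3A steroid and drug hydroxylases, 2.11-fold higher. Lower were phosphorylated ribosomal protein S6, phosphorylated ERK1 (MAPK3), phosphorylated p27 (CDKN1B), phosphorylated GSK3B, the stress kinase JNK1 (MAPK8) in its total and phosphorylated form, p38 alpha (MAPK14) and STAT3. For each of the 10, no DHEA reading fell between the lowest and the highest reading of control set 1. That condition was met by 41 of the 158 analytes (25.9%), 3 above and 38 below the controls, so on its own it sets the called analytes apart little.

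**Figure D1:**
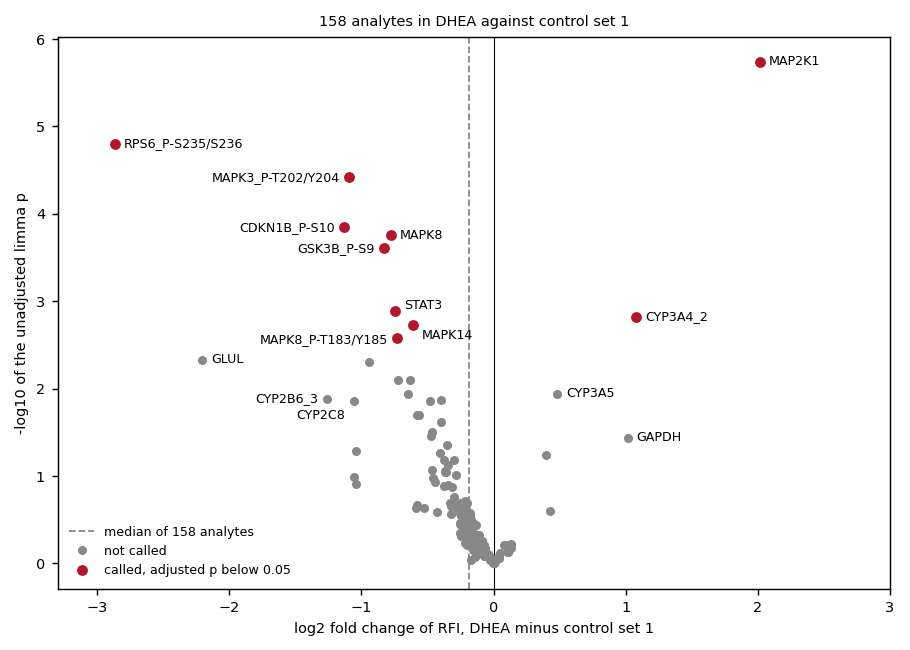
All 158 analytes, with the log2 fold change of RFI (DHEA minus control set 1) on the x axis and -log10 of the unadjusted limma p on the y axis. Red points are the 10 called analytes and the dashed line marks the median of -0.18; most points lie left of 0, and MAP2K1 and RPS6_P-S235/S236 have the smallest p.

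The ERK cascade carries growth factor signals from RAF through MAP2K1 and MAP2K2 to ERK kinases such as MAPK3, which phosphorylate factors such as ELK1. Of its 17 analytes, 1 was called higher and 1 lower (11.8%, against 6.33% over all analytes). Their median log2 fold change was -0.25 against -0.18 over all analytes. MAP2K1 read 355, 119 and 156 in the DHEA animals and 31.7, 100.0 and 31.2 in the controls. All DHEA animals were above all controls, and control animal 5 came closest. The difference was 2.02 (SE 0.37, adjusted p = 0.000288), and it was 2.57 without control animal 5 and 1.56 without DHEA animal 1, called each time. The signal of phosphorylated MAP2K1 (S217/S221, the activating sites) was 0.275, 0.305 and 0.388 in DHEA and 0.424, 0.469 and 0.344 in the controls. These ranges overlapped, and the difference of -0.36 (SE 0.21, adjusted p = 0.386) was not called.

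Phosphorylated MAPK3 (T202/Y204, the activation loop of ERK1) read 1.32, 1.44 and 1.48 in DHEA and 3.37, 2.94 and 2.77 in the controls. The DHEA animals lay close together and below every methylcellulose control, the lowest of the other 9 reading 1.87. This was a difference of -1.10 with an SE of 0.24, and it was called (adjusted p = 0.00201). Total MAPK3 was 0.663, 0.909 and 0.944 against 1.09, 1.26 and 1.10, also with no overlap, but its difference of -0.47 (SE 0.27, adjusted p = 0.386) was not called. ELK1, a transcription factor and ERK substrate, read 1.38, 1.81 and 1.87 against 3.50, 3.88 and 2.43. Its difference of -0.94 (SE 0.32) just missed the threshold (adjusted p = 0.0649), and it was called in a fit of the 6 animals alone (adjusted p = 0.0245), against all 12 methylcellulose controls and against control set 6. Outside MAP2K1, the log2 fold changes of the cascade ran from -1.10 to 0.02.

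**Figure D2:**
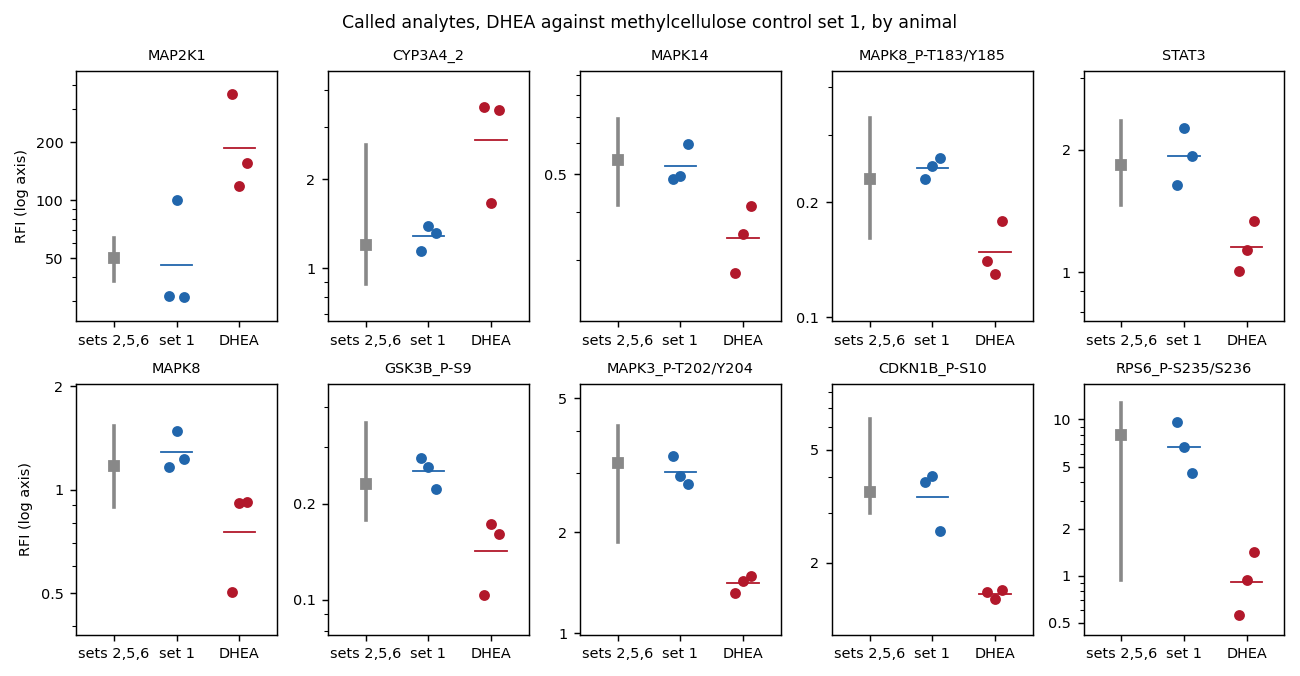
RFI of the 10 called analytes by animal on log axes: red, DHEA animals; blue, control set 1; horizontal lines, geometric means of 3 animals; grey, the lowest to the highest of the 9 animals of control sets 2, 5 and 6 with a square at their median. In every panel the red points lie outside the blue ones, and for RPS6_P-S235/S236, CYP3A4_2, MAPK8 and MAPK8_P-T183/Y185 they overlap the grey range.

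Protein synthesis and glycogen signalling run through AKT, mTOR and its downstream kinase to ribosomal protein S6, with GSK3B as an AKT substrate and the AMP-activated kinase PRKAA1 as an opposing energy sensor. All 17 analytes of this list were below 0, with a median log2 fold change of -0.40. Over all analytes, 135 of 158 were below 0. In this list 2 were called, both lower (11.8%, against 6.33% over all analytes). After centring, the median of the list was -0.19 against 0.03 over all analytes. RPS6_P-S235/S236 read 0.560, 0.943 and 1.42 in DHEA and 9.66, 6.69 and 4.52 in control set 1. All DHEA animals were below all animals of this set, and the difference was -2.87 (SE 0.59, adjusted p = 0.00124). Control set 6 gave lower readings than control set 1, of 3.66, 1.43 and 0.945, which overlap the DHEA animals.

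Against control set 6 the difference for RPS6_P-S235/S236 was -0.91 and was not called (adjusted p = 0.286). The total S6 antibodies also read low in DHEA animal 1: RPS6_1 gave 3.95, 10.3 and 15.3 against 10.9, 22.1 and 23.3, and RPS6_2 gave 0.0708, 0.183 and 0.308 against 0.238, 0.481 and 0.303. Both overlapped the controls, and neither difference was called (-1.05, adjusted p = 0.418, and -1.04, adjusted p = 0.294). GSK3B_P-S9, the inhibitory phosphorylation of the kinase, read 0.104, 0.173 and 0.160 in DHEA and 0.279, 0.260 and 0.223 in the controls. Every DHEA animal was below all 12 methylcellulose controls, and the signal fell by 0.83 (SE 0.21, adjusted p = 0.00652). GSK3B_P-S9 was not called against control set 2 or in the authors' own log2 ratios (the series matrix). Nor was it called without DHEA animal 1, or without control animal 4 or 5. Total GSK3B overlapped the controls (0.532 to 0.701 against 0.589 to 0.752). PRKAA1 and PRKAA1_P-T172, its activated form, had differences of -0.63 (adjusted p = 0.0900) and -0.65 (adjusted p = 0.110), with no overlap between the groups and no call.

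Of 9 stress kinase analytes, 3 were called, all lower (33.3%, against 6.33% over all analytes), although the median of the list was -0.12. The calls included the total and the phosphorylated form of MAPK8, and 2 remained after centring. These kinases, JNK1 (MAPK8) and p38 alpha (MAPK14), respond to cell stress and cytokines. MAPK8 was 0.504, 0.913 and 0.921 in DHEA and 1.17, 1.48 and 1.23 in the controls. DHEA animal 1 was well below the other DHEA animals, and the difference was -0.78 (SE 0.19, adjusted p = 0.00558). Total MAPK8 was not called without DHEA animal 1 or control animal 5, against control set 2, in the series matrix or in a fit of the 6 animals alone. Its phosphorylated form (T183/Y185) read 0.140, 0.130 and 0.178 against 0.229, 0.248 and 0.260, a dim signal that fell by 0.73 (SE 0.23, adjusted p = 0.0411). That form was not called against control set 2 or 5, in the authors' own log2 ratios (the series matrix) or with a pseudocount. Nor was it called without DHEA animal 1 or 2, or without any single animal of control set 1. MAPK14 read 0.279, 0.350 and 0.413 against 0.486, 0.496 and 0.597 and fell by 0.61 (SE 0.19, adjusted p = 0.0329). MAPK14 was not called after centring, in a fit of the 6 animals alone, against control set 5 or in the series matrix. With 1 animal left out, it was called only when that was DHEA animal 3. Phosphorylated MAPK14 (T180/Y182) overlapped the controls throughout (0.588 to 0.791 against 0.605 to 0.790). The upstream kinases MAP2K4 and MAP3K7 and the JNK substrate JUN had log2 fold changes between -0.13 and 0.01.

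STAT3, the transcription factor activated by interleukin-6 and related cytokines, was the only one of 13 JAK, STAT and NF-kB analytes called (7.69%, all analytes 6.33%). It read 1.01, 1.13 and 1.34 in DHEA against 1.64, 2.27 and 1.94, below all 12 methylcellulose controls, and fell by 0.75 (SE 0.22, adjusted p = 0.0293). It was not called after centring, in the series matrix or against control set 5. Nor was it called without DHEA animal 1 or 2, or without control animal 5 or 6. The phosphorylated forms STAT3_P-S727 and STAT3_P-Y705 overlapped the controls.

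In the cell cycle list 1 of 14 analytes was called (7.14%, against 6.33% over all analytes). CDKN1B_P-S10, a phosphorylated form of the cyclin-dependent kinase inhibitor p27, read 1.58, 1.49 and 1.61 in DHEA and 3.83, 4.03 and 2.59 in the controls. The DHEA animals were nearly alike and below all 12 methylcellulose controls, and the signal fell by 1.14 (SE 0.27, adjusted p = 0.00558). In the series matrix, the authors' own log2 ratios, the value under this name was 1.08 and that under CDKN1B -0.99, whereas total CDKN1B in the RFI was 0.0918, 0.111 and 0.146 against 0.0970, 0.120 and 0.130 with no separation. Which of these names belongs to which signal was not settled, so the call holds for the RFI under the deposited name. CDKN1B_P-T187 had a difference of -0.37 (adjusted p = 0.326). None of the 6 proliferation marker analytes (MKI67, AURKA, AURKB and CCNE2) was called, and their differences lay between -0.19 and 0.05.

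Cytochromes P450 are the haem enzymes that hydroxylate steroids, fatty acids and drugs, and their amounts in liver follow nuclear receptor ligands. Of 14 P450 analytes, 1 was called (7.14%, against 6.33% over all analytes). Their median log2 fold change was -0.17 against -0.18 over all analytes. CYP3A4_2 read 3.49, 1.66 and 3.42 in DHEA and 1.15, 1.39 and 1.31 in the controls. DHEA animal 2 was closest to the controls, and the difference was 1.08 (SE 0.32, adjusted p = 0.0297). It was not called against control set 6, where the difference was 0.35 (adjusted p = 0.467) and the controls read 1.94, 2.60 and 1.89, nor when DHEA animal 1 or 3 or any single animal of control set 1 was left out (adjusted p 0.0632 to 0.248). The other CYP3A4 antibody, CYP3A4_1, read 5.19, 6.34 and 4.42 against 6.38, 7.20 and 5.83, a difference of -0.29 (adjusted p = 0.645).

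CYP3A5, which carries another CYP3A name, read 0.794, 0.714 and 0.736 against 0.580, 0.557 and 0.476. All DHEA animals were above all animals of control set 1, and the difference of 0.48 (SE 0.18) was not called (adjusted p = 0.110) but was called after centring (0.69, adjusted p = 0.0188). Among the P450 signals below the controls, CYP2B6_3 had the largest difference, with 39.5, 38.2 and 43.2 against 94.1, 137 and 69.8. The DHEA readings were close to each other and below all 12 methylcellulose controls, and the difference was -1.26 (SE 0.49, adjusted p = 0.110). CYP2C8 (1.04, 1.51 and 1.58 against 2.77, 3.26 and 2.46) and CYP1A2_1 (0.646, 0.865 and 0.847 against 1.41, 1.26 and 1.20) were likewise below all 12. Their differences were -1.05 (SE 0.41, adjusted p = 0.110) and -0.72 (SE 0.26, adjusted p = 0.0900).

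The 3 analytes CYP2B6_3, CYP2C8 and CYP1A2_1 were called with the mean of all 12 methylcellulose controls, pooled without regard to set, as the reference (-1.28, -1.15 and -0.76). Antibodies of one name differed: CYP2B6_1 and CYP2B6_2 had differences of 0.11 and -0.06, and CYP1A2_2 of -0.17, each overlapping the controls. CYP2E1_2 read 1.38, 3.21 and 7.44 in DHEA, overlapping the controls, against 3.51, 7.85 and 4.07. CYP1A1_1, CYP1A1_2, CYP2D6 and CYP2E1_1 lay between -0.33 and -0.11. Of 6 other enzymes of drug and lipid metabolism (CYP4F2, CYB5A, POR, UGT1A1, PON1 and PON3), none was called, and their median difference was 0.12. UGT1A1, a bilirubin and drug conjugating enzyme, read 5.54, 7.39 and 9.92 against 5.94, 5.22 and 5.43.

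The receptor through which peroxisome proliferators act was measured with 3 antibodies. PPARA_1, PPARA_2 and PPARA_3 had log2 fold changes of -0.13, -0.08 and -0.09, and the partner receptor RXRA -0.07; none was called, with adjusted p between 0.715 and 0.823. PPARA_2 read 1.42, 1.48 and 1.26 in DHEA and 1.49, 1.42 and 1.48 in the controls, overlapping. Peroxisomal enzymes are not among the 158 analytes, so the response that names this class of compounds was not measured here.

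Hepatocyte markers were checked for the tissue label. HNF4A, the transcription factor that defines hepatocytes, read 1.34, 1.89 and 1.68 in DHEA and 2.20, 2.13 and 1.90 in the controls, with a difference of -0.36 (adjusted p = 0.259). Of 9 hepatocyte marker analytes, 1 was called, CYP3A4_2, which was higher. The other 8 were below 0, 4 of them below the range of control set 1, and the median of the 9 was -0.36 against -0.18 over all analytes. None of the 17 listed markers of bile duct, stellate, immune and endothelial cells was on the array, so their part in the differences was not tested. In whole liver, fewer cells of a type and less protein per cell cannot be told apart. GLUL, glutamine synthetase of the hepatocytes around the central vein and a target of beta-catenin, read 0.117, 0.324 and 0.254 in DHEA and 1.50, 0.792 and 0.793 in the controls. No DHEA animal reached the lowest control, the difference was -2.21 (SE 0.73), and it missed the threshold (adjusted p = 0.0649). It was called in 5 of 17 alternatives: the 6 animals alone, all 12 methylcellulose controls, control set 5, control set 6 and a pseudocount, over a range of adjusted p from 0.00381 to 0.584. GLUL signals reached values below 0 in other vehicle animals (down to -1.34), so its fold change rests on readings near background.

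Beta-catenin itself, CTNNB1, read 1.31, 1.78 and 1.75 against 2.35, 2.67 and 2.18, below all 12 methylcellulose controls, and its difference of -0.58 was not called (adjusted p = 0.144). The Wnt and adhesion list of 13 analytes had 1 call, GSK3B_P-S9, and a median of -0.25. No analyte was called among 10 growth factor receptor analytes (median -0.18), 11 histone and chromatin analytes (median -0.12), 4 apoptosis analytes (median -0.26) or 2 kinase and CREB analytes of cyclic AMP signalling. HIST1H3A, total histone H3, read 1.69, 1.17 and 1.70 against 2.69, 3.83 and 2.88 with a difference of -1.05 (adjusted p = 0.460), while its 5 modified forms lay between -0.20 and -0.06. GAPDH, often used as a loading control, read 0.267, 0.217 and 1.55 in DHEA against 0.249, 0.231 and 0.189, so that its difference of 1.02 came down to 0.12 without DHEA animal 3.

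Phosphorylated signals were also divided by the total form in the same animal, which cancels the amount of lysate but is no stoichiometry because the antibodies differ. Of 45 such ratios, 4 were called (8.89%), 3 lower and 1 higher in DHEA, and 21 of 45 were below 0. The log2 ratio of MAP2K1_P-S217/S221 to MAP2K1 was -10.33, -8.61 and -8.65 in DHEA and -6.23, -7.74 and -6.50 in the controls. It was lower by 2.38 (SE 0.33, adjusted p = 2.02e-07), the total having risen and the phosphorylated signal not. For GSK3B_P-S9 the ratio was -2.36, -1.76 and -2.13 against -1.34, -1.53 and -1.40, with no overlap and a difference of -0.66 (SE 0.15, adjusted p = 0.00190), which was not called in a fit of the 6 animals alone (adjusted p = 0.0538). STAT3_P-Y705 over STAT3 was the ratio called higher, at -1.87, -1.81 and -1.71 against -2.19, -2.57 and -2.58. Its difference was 0.65 (SE 0.18, adjusted p = 0.00853), with the total lower and the phosphorylated signal near the controls.

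CDKN1B_P-S10 over CDKN1B fell by 1.13 (SE 0.29, adjusted p = 0.00491) in the RFI, subject to the names described above, and was 2.07 in the series matrix. That ratio was not called without DHEA animal 3 or control animal 4, nor was STAT3_P-Y705 over STAT3 without DHEA animal 3, control animal 5 or control animal 6. RPS6_P-S235/S236 over the mean of its total antibodies was 0.08, -0.54 and -0.61 in DHEA and 2.58, 1.04 and 0.77 in the controls. These did not overlap, and the difference of -1.82 (SE 0.70) was not called (adjusted p = 0.112). The phosphorylated forms of MAPK3 and MAPK8 over their totals had differences of -0.63 (adjusted p = 0.412) and 0.05 (adjusted p = 0.962). For MAPK8 the phosphorylated and total signals were thus lower by like amounts, with an interval of the ratio difference from -0.42 to 0.52.

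**Figure D3:**
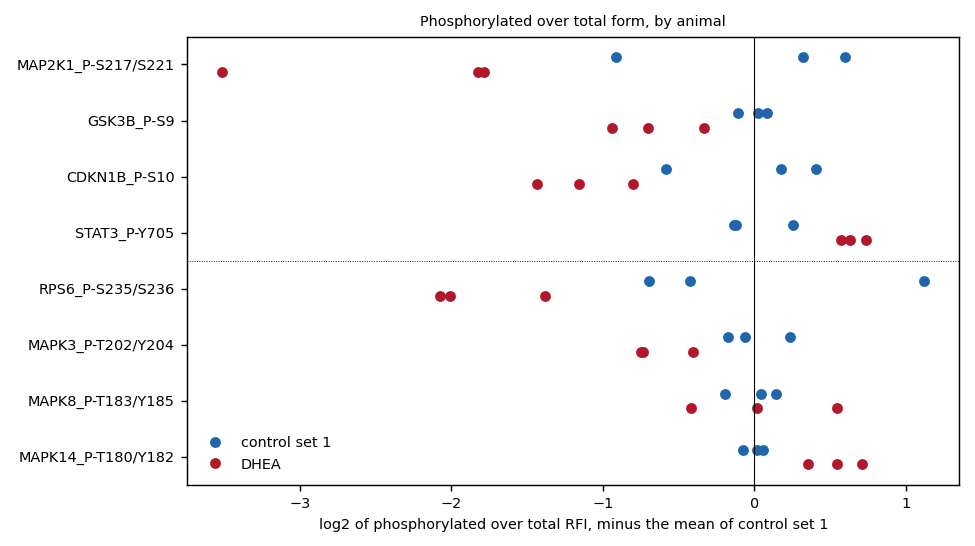
Log2 ratio of the phosphorylated to the total form by animal, minus the mean of control set 1 for each ratio: red, DHEA; blue, control set 1. The 4 ratios above the dotted line were called; the 4 below it were not, and the DHEA points of MAPK8_P-T183/Y185 lie on both sides of the controls.

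The choice of vehicle animals was examined because 3 control animals define the reference. No analyte was called between control set 1 and the mean of the other 3 methylcellulose sets (0 of 158 by limma, and 0 at an unadjusted p below 0.05). This contrast averages the 3 sets, so it can hide 1 set that departs, and no call does not show equality. In control set 6, RPS6_P-S235/S236 read 3.66, 1.43 and 0.945, below every animal of set 1. CYP3A4_2 read 1.94, 2.60 and 1.89 there, above every animal of set 1. All 10 analytes called against set 1 kept their direction against sets 2, 5 and 6, compared with the same DHEA animals. MAP2K1, MAPK3_P-T202/Y204 and CDKN1B_P-S10 were called against each of these sets. The number of calls was 8 against set 2 (5.06%), 8 against set 5 (5.06%) and 32 against set 6 (20.3%). All 12 animals, which include set 1, were also pooled as a single group without regard to set. With their mean as the reference, 26 analytes were called (16.5%), 3 higher and 23 lower. All 10 calls against set 1 were among them. In 17 analytes the 3 DHEA animals lay outside all 12 controls, MAP2K1 above and 16 below. Single animals decided several calls: without DHEA animal 1 the 4 calls were MAP2K1, MAPK3_P-T202/Y204, CDKN1B_P-S10 and RPS6_P-S235/S236, and without control animal 5 the 3 calls were MAP2K1, MAPK3_P-T202/Y204 and RPS6_P-S235/S236. With control animal 4 or 6 left out 6 analytes were called.

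**Figure D4:**
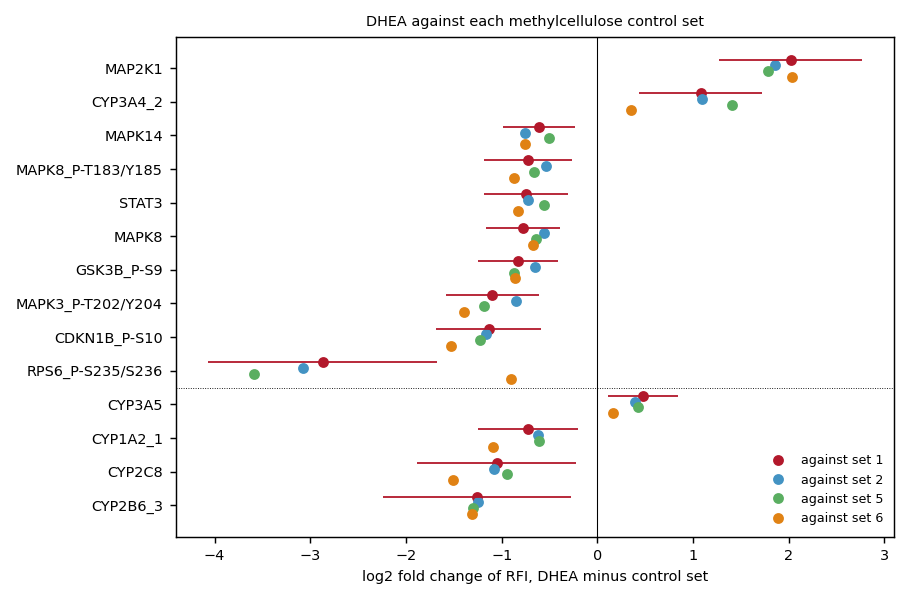
Log2 fold change of RFI in DHEA against each of 4 methylcellulose control sets of 3 animals, for the 10 called analytes (above the dotted line) and 4 P450 analytes. Red bars are 95% confidence intervals against set 1. Points of one analyte lie close together except for RPS6_P-S235/S236 and CYP3A4_2 against set 6.

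In a direct comparison with other treated livers the difference of means does not use the control animals, although the spread was estimated over all 63 animals. DHEA and AA, both after 14 days, differed in 4 of 158 analytes (2.53%). MAP2K1 was 36.9, 34.8 and 60.4 in AA, below all DHEA animals, and 2.14 lower on the log2 scale than in DHEA (SE 0.37, adjusted p = 9.69e-05). STAT3 read 2.45, 2.45 and 2.56 in AA and was 1.11 higher than in DHEA (SE 0.22, adjusted p = 0.000498). MAPK14 (0.532, 0.558 and 0.637) was also called and higher in AA than in every DHEA animal. With the animal number as a block over the 45 treated animals, 14 analytes were called, and the 10 added ones included MAPK8, GSK3B_P-S9, CTNNB1, RPS6_P-S235/S236 and CYP1A2_1, lower in DHEA, and CYP3A5, higher in DHEA. Leaving out DHEA animal 1 or AA animal 3 left 2 calls.

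DHEA and Mcarb differed in 10 of 158 analytes (6.33%), 2 higher and 8 lower in DHEA. MAP2K1 read 28.8, 40.8 and 34.6 in Mcarb, a difference of 2.45 (SE 0.37, adjusted p = 5.29e-06). CYP3A4_2 was the other analyte higher in DHEA (1.02, SE 0.32), with 1 of the Mcarb readings, 1.72, inside the DHEA range. Among those lower in DHEA were STAT3, MAPK14, GSK3B_P-S9, RPS6_P-S235/S236, MAPK3_P-T202/Y204, CYP1A2_1 and MKI67, a marker of cycling cells. Mcarb animal 3 read high in STAT3, at 3.49 against 1.71 and 2.23 in the other Mcarb animals. Without it, or without DHEA animal 1, 2 calls were left.

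DHEA and Wy differed in 2 of 158 analytes (1.27%), and both were CYP3A antibodies. Dose and duration differed too (14 days against 3 days), so compound, dose and time cannot be told apart. The study's list of compounds also gives different vehicles, methylcellulose for DHEA and carboxymethyl cellulose for Wy, whereas its methods name the latter for both. CYP3A5 read 1.58, 1.56 and 1.47 in Wy, above every DHEA animal and 2.05-fold higher in the fit, and the difference was -1.04 (SE 0.18, adjusted p = 0.000128). CYP3A4_2 went the other way, at 1.19, 0.722 and 0.854 in Wy and 1.66 or more in DHEA, a difference of 1.58 (SE 0.32, adjusted p = 0.000810). These 2 were called under each of 10 alternatives run for this pair. CTNNB1_P-T41/S45, a phosphorylated beta-catenin, was higher in DHEA with no overlap (0.348, 0.319 and 0.283 against 0.142, 0.201 and 0.214) and was called after centring, in the series matrix and with the animal number as a block, which gave 3 calls.

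Wy against the same control set 1 gave values close to those of DHEA in several of the called analytes, and both comparisons share those control animals. MAP2K1 was 2.02 higher than control set 1 in DHEA and 2.21 higher in Wy, where it read 190, 162 and 317. The direct difference was -0.19, with a 95% interval from -0.93 to 0.55. The corresponding interval was -0.51 to 0.46 for MAPK3_P-T202/Y204, -0.56 to 0.54 for CDKN1B_P-S10, -0.43 to 0.44 for STAT3 and -0.31 to 0.46 for MAPK8. It was -0.39 to 0.45 for GSK3B_P-S9, -0.26 to 0.49 for MAPK14 and -0.45 to 0.47 for MAPK8_P-T183/Y185. For RPS6_P-S235/S236 it was wide, from -2.07 to 0.32. These intervals leave room for differences of the stated sizes, and an analyte not called is not shown to be equal. CYP2B6_3 read 27.4, 20.5 and 16.8 in Wy, below every DHEA animal, with a difference of 0.93 whose interval, -0.05 to 1.91, includes 0.

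**Figure D5:**
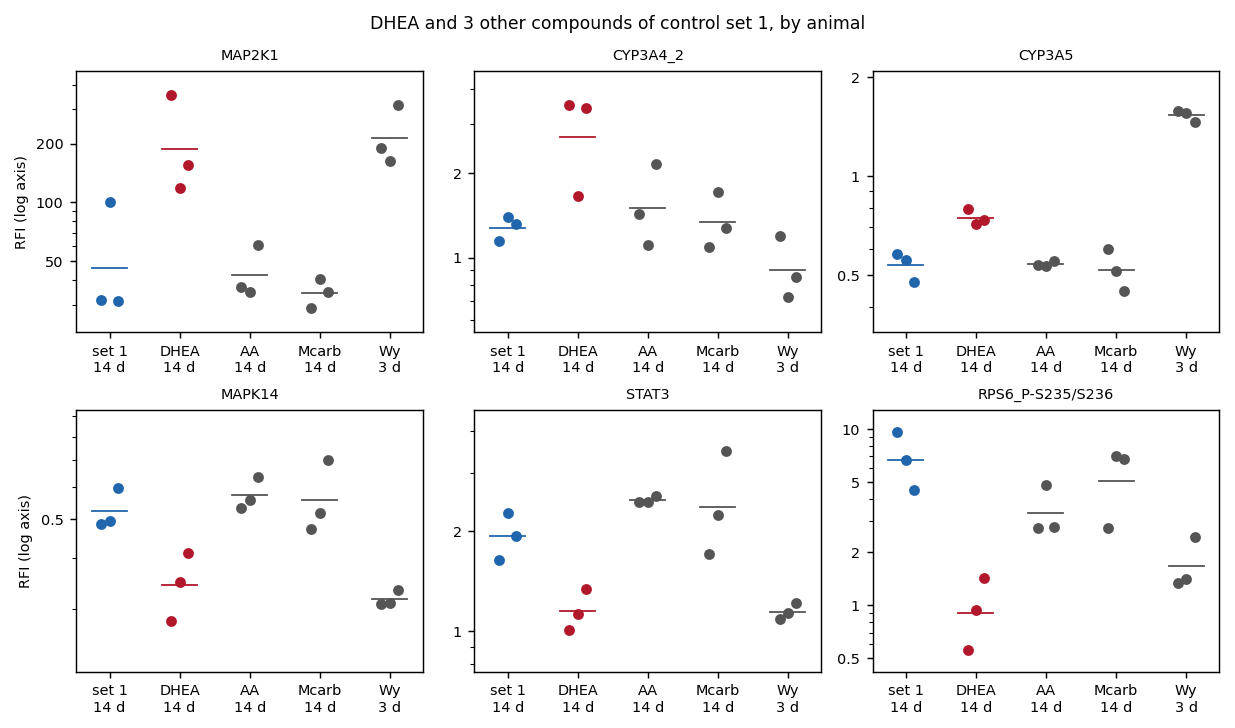
RFI of 6 analytes by animal on log axes in control set 1, DHEA, AA, Mcarb and Wy (3 animals each, days of dosing under the names), with horizontal lines at geometric means. MAP2K1 is high and STAT3 low in DHEA and Wy, whereas CYP3A4_2 is highest in DHEA and CYP3A5 in Wy.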

How the data were processed

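Liver lysates were measured on ZeptoMARK reverse-phase protein arrays. Per the study's methods the authors corrected spots for background, normalised them over the array and deposited, for each animal, the RFI of 158 analytes as a linear intensity. A second deposited table, the series matrix, holds the authors' log2 ratios to the median of control animals, with missing values imputed. It served as an alternative, and the offset of its columns is not explained by the sources used here. Groups were taken from the labels. Among the 948 values of the 6 animals, 2 at or below 0 (ACTB, 1 animal in each group) were set to missing, and the others were log2 transformed without further scaling. Models with 21 group means over all 63 animals were fitted with limma 3.58.1 (lmFit, eBayes; R 4.3.3), two-sided, with Benjamini-Hochberg adjustment over all 158 analytes or 45 ratios, and checked on simulated data. The labels do not give litters or array batches, the number of animals limits the precision, and p-values measure the spread between these animals.

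Members, gene lists and tests were chosen with earlier results of these data known. Named were all called analytes, the 10 largest differences in each direction among those outside the control range, all P450 analytes, all analytes sharing a called symbol, and GLUL, JUN, CDKN1B and CYP2C8; CTNNB1, PRKAA1, HNF4A, GAPDH, UGT1A1, PPARA and RXRA were added from the lists after their values were seen. Some analytes are not reported here. The lists of other drug and lipid enzymes and of nuclear receptors were added once the analyte names were known. Animal numbers were checked for pairing between treated groups by the correlation over analytes of deviations from group means. It was 0.29, 0.22 and 0.21 for the 3 pairs of DHEA and AA and 0.30, 0.13 and 0.14 for DHEA and Wy, so the blocked counts are given beside these results; for DHEA and Mcarb 1 pair was at -0.26. The labels do not say what the numbers mean, so these correlations do not show that animals of equal number were paired.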

Additional observations from a re-analysis of the deposited data

How the results depend on the processing

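DHEA against control set 1 gave 10 calls in the fit over all animals and, with 1 animal left out, 3 to 10: 3 without control animal 5, 4 without DHEA animal 1, and 6 without control animal 4 or 6. MAP2K1, MAPK3_P-T202/Y204 and RPS6_P-S235/S236 were called in each of these 6 fits. A fit of the 6 animals alone gave 14 calls, 8 of them shared: it lost MAPK8 and MAPK14 and added ELK1, GLUL, CYP1A2_1, CYP2B6_3, CYP2C8 and HIST1H3A. There were 5 calls in the series matrix, of which MAP2K1, CYP3A4_2 and RPS6_P-S235/S236 were shared, so 7 calls were lost there, MAPK3_P-T202/Y204 among them (-0.87, adjusted p = 0.103). There were 26 with all 12 methylcellulose controls and 32 with control set 6. Both references include animal 1 of set 6, whose median RFI of 0.882 was the highest among the methylcellulose controls. Centring each animal gave 10 calls, of which 4 were higher and 6 lower, against 2 and 8 without it, and 8 calls were shared. CDKN1B_P-S10 was reversed in the series matrix, both alone (1.08) and over its total form (2.07), CYP2E1_2 without DHEA animal 1 (0.0190, in a range from -1.20 to 0.0190 with 1 animal left out) and UGT1A1 against control set 6 (-0.12); the cause was not tested. The ratios gave 7 calls with all 12 controls and 2 to 4 with 1 animal left out. Control set 1 against the other sets gave 0 calls under each alternative run.

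With the replicate block over the treated animals there were 14 calls for DHEA against AA, in place of 4, 17 for DHEA against Mcarb, in place of 10, and 3 for DHEA against Wy, in place of 2. For none of these compounds do the labels say that equal numbers pair the animals, and for Mcarb 1 pair correlated at -0.26. DHEA against Mcarb gave 6 calls in the series matrix, and DHEA against Wy 4 after centring. With 1 animal left out the counts were 2 to 7 for AA, 2 to 14 for Mcarb and 2 for Wy. DHEA and control set 1 share no animal numbers, so a paired fit of that comparison was not possible. Dim signals near background, such as GLUL, are limited by the antibody signal.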
